A study of Mus musculus with 2 samples.

Results

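The miR-29 family of the mouse consists of 4 microRNA genes, Mir29a, Mir29b-1, Mir29b-2 and Mir29c, which were taken by name from the 1973 microRNA genes of the count tables. All 4 were present in the tables. The small RNA fraction came from whole lungs of B6NCrl mouse embryos at day 16.5, pooled over males and females, healthy and with no treatment. The study holds a single group of 2 libraries, labelled biological replicates 1 and 2, so the comparisons are among genes and between the libraries, and none is between conditions. The pool of replicate 2 was made from 41 embryos, and that of replicate 1 from an unstated number.

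A microRNA gene is transcribed as part of a longer primary RNA, from which a hairpin is cut. One arm of the hairpin, here the one on the 3′ side, becomes the mature microRNA that guides repression of messenger RNAs through its seed, bases 2 to 8. The miR-29 family is known for repressing genes of the extracellular matrix, among them collagens, elastin and fibrillin, and the DNA methyltransferases Dnmt3a and Dnmt3b. In lung it is best known for its fall in fibrosis, and in many tissues it accumulates as they mature after birth.

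The mature sequences are shown because they decide which reads can be assigned to a single gene. They are RefSeq sequences on build GRCm38.p6, written 5′ to 3′, with the seed in capitals.
miR-29a-3p: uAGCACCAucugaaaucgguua
miR-29b-3p: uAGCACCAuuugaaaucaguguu
miR-29c-3p: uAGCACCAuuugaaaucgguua

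All 3 have the same seed, AGCACCA, and no other mature sequence of the RefSeq table has it. Counting from 1 at the 5′ end of miR-29a-3p, miR-29c-3p differs from it by the single substitution C10U, which lies outside the seed. The 29b form differs from miR-29a-3p by C10U, G18A, U21G and A22U over the first 22 bases, and is 23 bases long. It begins with the same 17 bases as miR-29c-3p. Mir29a and Mir29c each encode a mature sequence found at 1 locus of the table, whereas miR-29b-3p is encoded at 2 loci, Mir29b-1 and Mir29b-2.

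The hairpins show how much sequence surrounds the mature arm, which is in capitals here. They are identical to the GENCODE M21 transcripts of the same genes.
Mir29a: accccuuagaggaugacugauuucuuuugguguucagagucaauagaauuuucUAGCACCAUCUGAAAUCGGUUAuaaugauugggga
Mir29b-1: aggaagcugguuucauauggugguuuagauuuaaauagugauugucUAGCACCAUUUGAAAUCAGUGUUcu
Mir29b-2: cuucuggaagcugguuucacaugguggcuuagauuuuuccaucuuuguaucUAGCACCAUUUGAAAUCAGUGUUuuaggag
Mir29c: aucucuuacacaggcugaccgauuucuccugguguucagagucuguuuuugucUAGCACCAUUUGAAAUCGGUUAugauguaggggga

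The longest stretch common to the hairpins of Mir29b-1 and Mir29b-2 is 25 bases, more than the whole mature arm. Mir29c shares 22 bases with Mir29b-1 and 19 with Mir29b-2, and Mir29a shares at most 14 bases with any other member. The arms on the 5′ side differ more. The longest run common to those of Mir29b-1 and Mir29b-2 is 9 bases, so a read of this arm can be placed.
miR-29b-1-5p: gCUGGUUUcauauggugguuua
miR-29b-2-5p: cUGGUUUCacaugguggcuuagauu

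The genes lie in 2 clusters (mm10, coordinates of GENCODE M21). Mir29a (ENSMUSG00000065610.1) is on chromosome 6 at 31062660 to 31062747, minus strand. Mir29b-1 (ENSMUSG00000065604.1) is 275 bases away, at 31063023 to 31063093 on the same strand, and touches the end of an exon of the long non-coding RNA gene Gm27019. Mir29b-2 (ENSMUSG00000065412.2) is on chromosome 1 at 195037040 to 195037120, plus strand, and Mir29c (ENSMUSG00000065548.1) at 195037547 to 195037634 on the same strand. Both of the latter lie within an exon of the non-coding transcript A330023F24Rik and, on the opposite strand, of the protein-coding gene Cd46. All counts of the 4 genes were on their own strand, and the opposite strand held 0 counts in each library, which allows up to 3. The deposited identifiers of Mir29b-1 and Mir29b-2 carry a lower version than in release M21, so the boundaries used for counting may have differed from those given here.

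The libraries held 6376715 counts (replicate 1) and 4123748 counts (replicate 2) over microRNA genes, and levels are given as CPM, counts scaled to a total of 1000000 in each library. A count of 0 allows up to 0.470 and 0.727 CPM. Reads matching several loci were kept apart by the authors and made up 29.97% and 31.8% of the reads in the tables. Markers of lung cell types were present: the 5 epithelial genes of the miR-200 group stood at 1028 to 14764 CPM, endothelial Mir126a at 83199 CPM, and the 5 measured neuronal genes, each of which shares sequence with another microRNA gene, at 0 to 1.93 CPM.

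The family was a minor part of the lung's counted microRNAs, and nearly all of it was Mir29a and Mir29c. It had 1094 counts in replicate 1 and 832 in replicate 2, or 172 CPM (95% exact interval 162 to 182) and 202 CPM (188 to 216). This is 0.0187% ± 0.00214 of gene counts (SD, n = 2). In whole tissue, fewer cells making a microRNA and less of it per cell cannot be told apart.

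Mir29a, the single gene of miR-29a-3p, had 720 counts in replicate 1 and 590 in replicate 2. These are 113 CPM (105 to 121) and 143 CPM (132 to 155), with a mean of 128 ± 21.3 (SD, n = 2). Replicate 2 was the higher library. The intervals do not overlap, but they cover counting error only and not the spread between libraries. Mir29a held 65.8% of the family's counts in replicate 1 (interval 62.9 to 68.6%) and 70.9% in replicate 2 (67.7 to 73.98%).

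Mir29c, the single gene of miR-29c-3p, had 356 and 233 counts, which are 55.8 CPM (50.2 to 61.9) and 56.5 CPM (49.5 to 64.2). Its mean was 56.2 CPM ± 0.477 (SD, n = 2), and the libraries overlapped almost fully. It held 32.5% of the family's counts in replicate 1 and 28.0% in replicate 2.

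Mir29b-1 and Mir29b-2, the pair that encodes miR-29b-3p, were near the floor. Mir29b-1 had 9 counts in replicate 1 and 4 in replicate 2, at 1.41 CPM (0.645 to 2.68) and 0.970 CPM (0.264 to 2.48). Mir29b-2 had 9 and 5 counts, at 1.41 CPM (0.645 to 2.68) and 1.21 CPM (0.394 to 2.83). Neither had at least 10 counts in each library, the minimum for calling a gene detected, while Mir29a and Mir29c did. The tables do not separate the arms of a hairpin, so whether these few counts came from the 5′ or the 3′ arm was not measured.

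**Figure D1:**
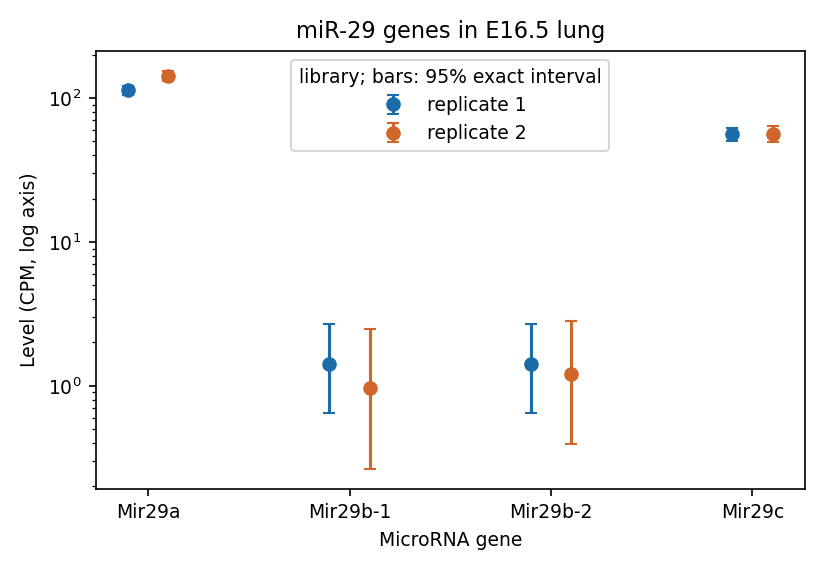
Level of the 4 miR-29 genes (CPM, log axis) in replicate 1 (blue) and replicate 2 (orange), with 95% exact intervals that cover counting error only. Mir29a lies at 113 and 143 CPM and Mir29c at 55.8 and 56.5 CPM, while both Mir29b genes lie at or below 1.41 CPM with wide, overlapping intervals.

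The order of levels was the same in both libraries for Mir29a, Mir29c and the Mir29b pair. Mir29a was 2.02-fold above Mir29c in replicate 1 (interval 1.78 to 2.30) and 2.53-fold in replicate 2 (2.17 to 2.96), and the levels of these genes did not overlap between libraries. Both have hairpins of 88 bases and mature arms of 22, so the fold is the same per length. Mir29c shares a hairpin stretch of 22 bases with Mir29b-1, which holds only the first 17 bases of its mature arm. Mir29a shares at most 14 bases with any member. The full miR-29c-3p differs from miR-29b-3p at 3 positions and from miR-29a-3p at 1. The mismatches allowed in alignment are not stated, so either gene may be counted too low by an amount that was not measured. The fold is not corrected for this. Mir29b-1 and Mir29b-2 had equal counts in replicate 1, and in replicate 2 their ratio was 0.800 (0.159 to 3.72), so these neighbours in the order were not separated at this depth.

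Within each cluster the member with its own mature sequence had far more counts than its neighbour. The neighbour's counts leave out reads that match several loci, so the ratios below are of counts only. On chromosome 6, Mir29a had 80.0 times the counts of Mir29b-1 in replicate 1 (interval 41.9 to 176) and 147.5 times in replicate 2 (57.3 to 543). Per base of hairpin these ratios were 64.5 and 119, a scaling that corrects nothing if reads are single arms of 22 to 25 bases. On chromosome 1, Mir29c had 39.6 and 46.6 times the counts of Mir29b-2, or 36.4 and 42.9 times per base of hairpin. Summed over both genes, the chromosome 6 cluster stood at 114 and 144 CPM and the chromosome 1 cluster at 57.2 and 57.7 CPM.

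The counts of the Mir29b genes do not include all reads that could come from them. Reads of the full miR-29b-3p match both loci, and reads matching several loci have a summary line of their own in the tables, outside the genes. Those reads numbered 3856768 in replicate 1 and 2684057 in replicate 2, which is 3525 and 3226 for each count of the family. How many of them were miR-29b-3p was not measured, so the low counts of Mir29b-1 and Mir29b-2 do not give the level of that microRNA, nor do 2.50 CPM, the sum of their mean levels.

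How genes with repeated sequence fared depended on how repeats were defined, and no difference was tested. Of 87 measured genes that carry a mature sequence found at several loci, 42 (48.3%) were detected, with a median of 50.8 CPM among those. Of 829 genes whose listed mature sequences are each at 1 locus, 268 (32.3%) were detected, with a median of 212 CPM. By a shared hairpin stretch of 22 bases, which includes genes with no listed mature sequence, 62 of 871 (7.12%) were detected, with a median of 54.6 CPM. Of 1023 genes without such a stretch 285 (27.9%) were, with a median of 229 CPM. Mir29a and Mir29c each have mature sequences at 1 locus and lay below the median of that class. By the shared stretch of 22 bases Mir29c (56.2 CPM) falls in the repeated class, just above its median of 54.6 CPM.

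There were 31 pairs of genes like Mir29b-1 and Mir29b-2, whose symbols differ in a trailing number and which share a mature sequence in the RefSeq table. Both genes were detected in 17 pairs, 1 gene in 3 pairs and neither in 11 pairs, 7 of which had 0 counts at both loci. By summed mean level the Mir29b pair was the 21st, in a range led by Mir92-1 (2675 CPM ± 92.1, SD, n = 2) and Mir92-2 (180 CPM). Mir16-1 (1925 CPM ± 92.0) and Mir16-2 (393 CPM) followed. Among the 24 pairs with any count the median sum was 55.8 CPM, against 2.50 CPM for Mir29b. The lowest such pair was Mir135a-1 (0.799 CPM) and Mir135a-2 (0.278 CPM). The summed levels of pairs with a shared mature sequence thus ran from 0 to 2855 CPM in these tables.

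**Figure D2:**
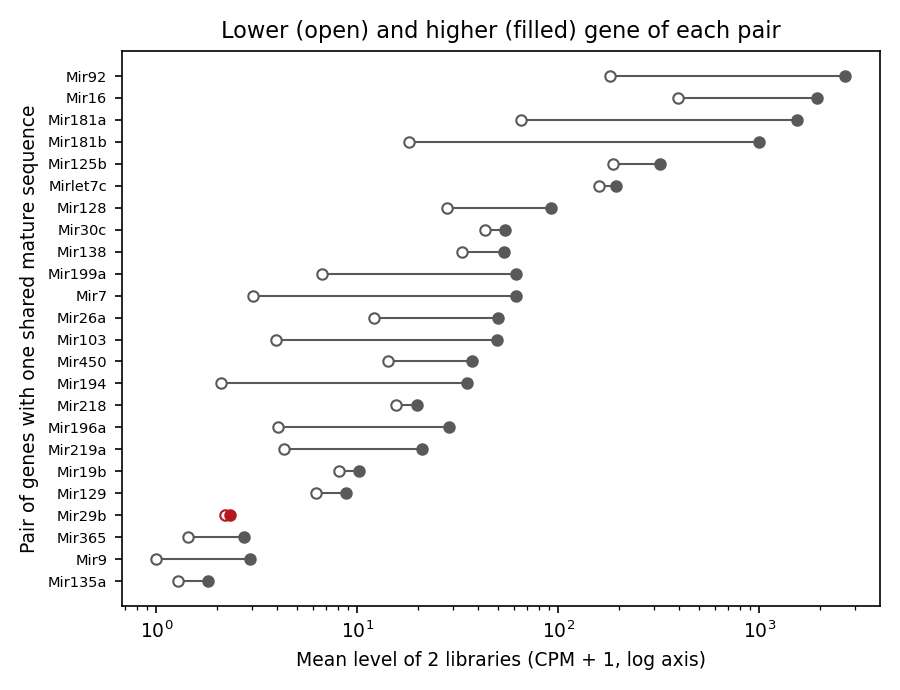
Mean level over the 2 libraries (CPM + 1, log axis) of the lower (open circle) and higher (filled circle) gene of the 24 pairs that share a mature sequence and have any count. The Mir29b pair, in red, has nearly coinciding circles at the low end, while the higher genes of the Mir92 and Mir16 pairs reach 2675 and 1925 CPM.

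Among the 347 detected genes, Mir29a and Mir29c both lay below the median, Mir29a only slightly by rank. By mean level Mir29a was number 191 and Mir29c number 222, with 156 and 125 detected genes below them. The median detected gene stood at 180 CPM, 1.41-fold above Mir29a and 3.21-fold above Mir29c. The highest, Mir322, was 662-fold above Mir29a.

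**Figure D3:**
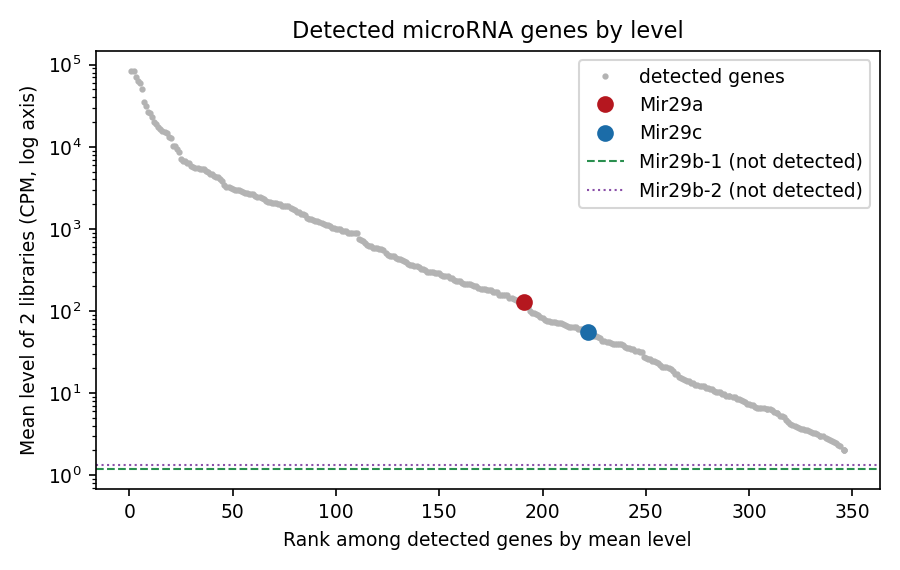
Mean level over the 2 libraries (CPM, log axis) of the 347 detected microRNA genes against their rank. Mir29a (red, rank 191) and Mir29c (blue, rank 222) lie below the median gene. The dashed and dotted lines mark Mir29b-1 and Mir29b-2 below the lowest detected gene.

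The genes closest to Mir29a over log2(CPM + 1) in the 2 libraries were Mir3074-1 (122 and 145 CPM, distance 0.115), Mir598 (123 and 145 CPM, distance 0.120) and Mir496a (124 and 139.7 CPM, distance 0.137). Part of the Mir3074-1 counts, 317 of 779 in replicate 1, lay on the opposite strand. The closest to Mir29c were Mir345 (63.8 and 57.5 CPM, distance 0.191), Mir7-1 (64.1 and 57.2 CPM, distance 0.198) and Mir138-2 (56.1 and 48.7 CPM, distance 0.209). Mir3074-1, Mir7-1 and Mir138-2 share a hairpin stretch of 22 bases with another microRNA gene and may be counted too low. Mir29c also shares 22 bases, but these do not hold its whole mature arm. This likeness covers 2 libraries of one tissue, so it measures a similar level and not a pattern over conditions.

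Mir29a differed between the libraries and Mir29c did not pass the test. Mir29a was 1.27-fold higher in replicate 2 (interval 1.13 to 1.41, adjusted p = 8.41e-05, two-sided exact binomial test with Benjamini-Hochberg adjustment over the detected genes). By the same test 47.0% of detected genes differed and 30.5% were higher in replicate 2, so 1 of the 2 detected members is near the background. A larger fold in either direction was seen in 76 detected genes (21.9%). Mir29c was at 1.01-fold (0.854 to 1.20, adjusted p = 0.937). The folds of Mir29b-1 and Mir29b-2, 0.687 (0.155 to 2.46) and 0.859 (0.226 to 2.85), were too uncertain to read.

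That test weighs the reads of these libraries against counting error and says nothing of conditions. When the spread between the libraries entered the test, as a common dispersion equal to a coefficient of variation of 14.9% (exact test of edgeR), the adjusted p of Mir29a was 1, and over 6 alternatives it ran from 6.48e-05 to 1. The 163 genes past the binomial test split into 106 higher in replicate 2 and 57 higher in replicate 1, but into 75 and 78 with TMM factors, under which Mir29a was still 1.22-fold higher in replicate 2.

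Whether members kept their proportions was tested for all 6 pairs with Fisher's exact test. For Mir29a and Mir29c the two-sided p was 0.0276, and 0.166 after Benjamini-Hochberg adjustment over the 6 pairs, so a change in their ratio from 2.02 to 2.53 was not established. The adjusted p of the remaining pairs lay between 0.891 and 1.

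Markers of several tissues also differed between the libraries by the binomial test, which 47.0% of all detected genes passed. Hepatocyte Mir122 was at 111 CPM in replicate 1 and 601 CPM in replicate 2, and red-cell Mir451a at 747 and 408 CPM. Striated-muscle Mir206 was 2.19-fold higher in replicate 2, while Mir208a was at 0.605-fold and Mir133a-1 at 0 counts. Of the 3 multiciliated markers, which held 1.46% and 1.85% of gene counts, Mir449a was higher in replicate 2 (14580 and 18445 CPM), and Mir449b (0.966-fold) and Mir449c (1.24-fold) did not pass. Endothelial Mir126a held 8.73% and 7.91% of gene counts (0.907-fold). In the exact test of edgeR, Mir122 (adjusted p = 4.00e-11) and Mir206 (adjusted p = 0.0210) kept their calls. Mir451a, Mir208a, Mir449a and Mir126a lost theirs in that test. Its dispersion comes from the same libraries, so these calls are not an independent check. The 5 mesenchymal markers held 7.58% and 7.82%, most of it Mir143, with 3 higher in replicate 2 and 0 in replicate 1. The 5 epithelial markers held 3.26% and 3.39%, with 3 higher in replicate 2 and Mir200a lower (0.910-fold). Beside these counts, 30.5% of all detected genes were higher in replicate 2, a side that holds more calls only before TMM scaling. The part of these markers in the difference of Mir29a was not tested.

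**Figure D4:**
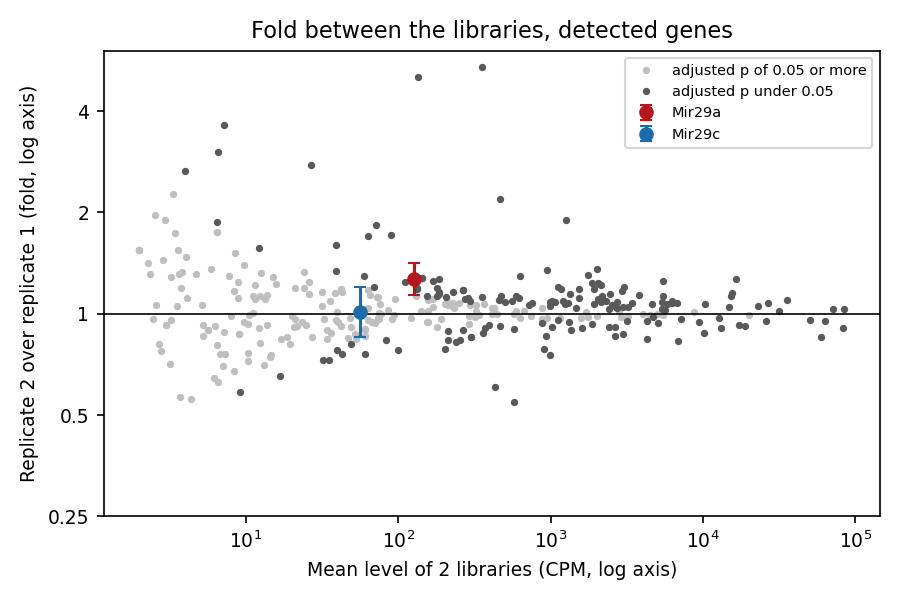
Fold of replicate 2 over replicate 1 (log axis) against mean level (CPM, log axis) of the 347 detected genes, with genes past the binomial test in dark grey. Mir29a (red, 1.27) lies above 1 and Mir29c (blue, 1.01) at 1, with 95% exact intervals.

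MicroRNAs known from the same biology were set beside Mir29a, above which 190 of the 347 detected genes (54.8%) lay. Of 8 microRNAs known to promote fibrosis, all were detected and 5 were above Mir29a, with a median of 668 CPM against 180 CPM over all detected genes. Mir21a, which promotes TGF-beta signalling in fibroblasts, led at 8695 CPM ± 69.2 (SD, n = 2). Mir214, transcribed in mesenchyme, was at 4608 ± 216, and Mir145a of smooth muscle and myofibroblasts at 1077 ± 61.0. The lowest was Mir199a-1 at 5.65 CPM, which shares sequence with Mir199a-2. Of the 8, 4 were higher in replicate 2 by the binomial test and 0 in replicate 1, beside 30.5% of all detected genes higher in replicate 2, a side that holds more calls only before TMM scaling.

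Of 12 other microRNAs known to restrain fibrosis or epithelial-mesenchymal transition, 10 were detected and 7 were above Mir29a. The median among those detected was 3598 CPM. Of the 7, 5 are the epithelial markers of the miR-200 group. Another 4 of the list, Mir26a-1, Mir26a-2, Mir133a-1 and Mir133a-2, share sequence with another microRNA gene and may be counted too low. Mirlet7d was at 19889 CPM ± 86.8 (SD, n = 2), 155-fold above Mir29a. Mir429, a miR-200 gene that represses Zeb1 and Zeb2, was at 14764 ± 461, and Mir30a at 12764 ± 250. Mir133a-1 and Mir133a-2, known from muscle, had 0 counts. In the binomial test 3 members were higher in replicate 2 and 2 in replicate 1, near the 47.0% of all detected genes that differed.

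MicroRNAs that act on DNA methylation and chromatin were closest to Mir29a in level. All 7 listed genes were detected, 4 of them above Mir29a and 2 below Mir29c, with a median of 158 CPM. Those below Mir29c, Mir26a-2 (49.2 CPM) and Mir26a-1 (11.1 CPM), share sequence with another microRNA gene and may be counted too low. They and Mir101a are also in the list of restraining microRNAs, so the 2 lists overlap. Mir101b, which represses the histone methyltransferase Ezh2, was at 1312 CPM ± 50.6 (SD, n = 2). Mir148a and Mir152, which repress the maintenance methyltransferase Dnmt1, were at 626 ± 13.0 and 169 ± 26.9. Mir152 was 1.25-fold higher in replicate 2 (1.14 to 1.38) and Mir101b 0.947-fold (0.915 to 0.980). These were the members past the binomial test, which 47.0% of all detected genes passed. Neither passed the exact test of edgeR.

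**Figure D5:**
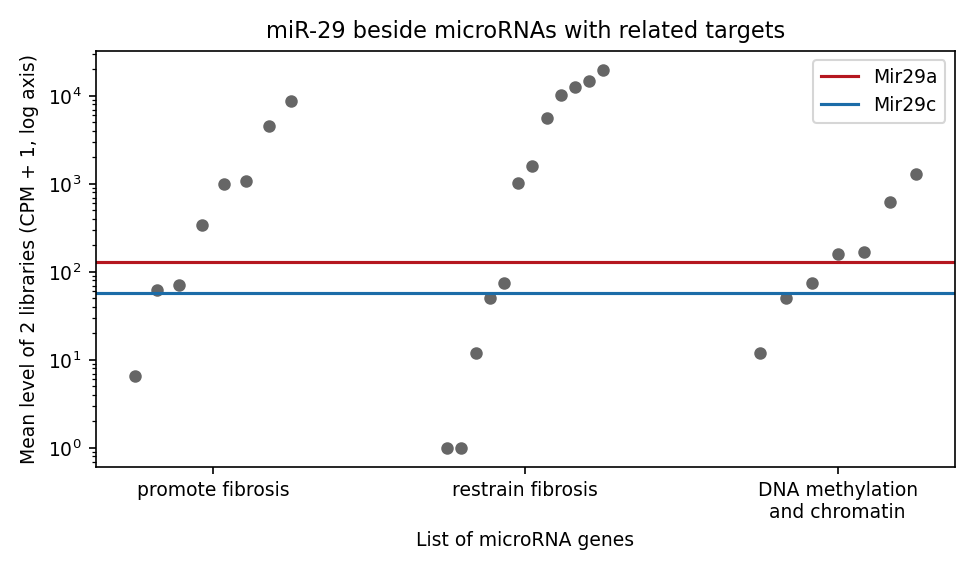
Mean level over the 2 libraries (CPM + 1, log axis) of the genes in 3 lists of microRNAs known from fibrosis or from DNA methylation and chromatin. The lines mark Mir29a (red) and Mir29c (blue), and 5 of 8, 7 of 12 and 4 of 7 genes lie above the Mir29a line.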

How the data were processed

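The authors deposited 1 table of counts per library: whole reads per microRNA gene, not normalized, in 3 columns (both strands, sense, opposite), with 4 summary lines for reads not counted to a gene. Per the file headers the assembly is mm10 and the annotation GENCODE M4. Neither an aligner nor a counter is named there or in the labels. The column without strand was used, and the summary lines, about 50.4% and 51.2% of reads, stayed out of totals and tests. CPM was computed over gene rows. Identifiers were matched without version to GENCODE M21, for 1894 of 1973 genes, and mature sequences come from RefSeq by symbol.

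Detection required 10 counts or more per library. Intervals are exact Clopper-Pearson intervals at 95% and, like the floor of 3 counts, reflect only counting error, because PCR copies of one molecule cannot be recognised. Replicates were compared by a two-sided exact binomial test per detected gene given the totals, adjusted by Benjamini-Hochberg over all 347 detected genes (threshold 0.05), and pairs of members by Fisher's exact test. With a single group no quasi-likelihood contrast exists. The common dispersion for the exact test of edgeR was estimated from both libraries as 1 group. Alternatives were TMM factors and the exact test of edgeR 4.0.16, size factors of DESeq2 1.42.0 over detected genes, other count columns, denominators, filters and pseudocounts, and each replicate left out. Counts per base of hairpin were added after seeing the data. The binomial test was tested on simulated counts with counting error only. That simulation lacked the spread between the real libraries, so it does not show how the test behaves under that spread. Python 3.11.15, scipy 1.17.1 and R 4.3.3 were used.

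Named were all members, the highest and lowest pairs of numbered copies, the 3 genes closest to Mir29a and to Mir29c, up to 3 leading genes of each list, and any microRNA with the same seed. Other genes named were chosen after their values were seen. The members and lists were chosen with earlier results of these data known.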

Additional observations from a re-analysis of the deposited data

How the results depend on the processing

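Of 59 alternatives over 12 results, 45 kept direction, call and size. For a level or ratio, size was kept if it stayed within the SD of the 2 libraries. Each library alone always lies within that SD, so leaving out a replicate could not change the label. The pseudocount reused the adjusted p of the main test, and sense-strand counts could not change ratios of members with 0 opposite counts. The 45 is thus not a measure of robustness. With all reads in the tables as denominator, Mir29a fell to 62.9 CPM, Mir29c to 27.6, Mir29b-1 to 0.586, Mir29b-2 to 0.645 and the family share to 0.00917%, since the denominator about doubles. Mir29c was at 57.7 CPM with sense-strand counts and 61.4 CPM without the most abundant gene, more than its narrow spread. Its fold between the libraries turned from 1.01 to 0.976 with TMM factors and 0.976 with DESeq2 size factors, never past the test. The fold of Mir29a stayed at 1.27 but lost its call in edgeR's exact test (adjusted p = 1), in which the genes called fell from 163 to 5 (14 at an unadjusted p under 0.05). The median of detected genes with a shared hairpin stretch moved from 54.6 CPM to 57.7 CPM with sense-strand counts and 73.9 CPM with 18 shared bases. Over all genes with such a stretch, detected or not, it was 0 CPM. The cause was not tested.

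With 1 replicate left out, Mir29a ran from 113 to 143 CPM, Mir29c from 55.8 to 56.5, Mir29b-1 from 0.970 to 1.41, Mir29b-2 from 1.21 to 1.41 and the family share from 0.0172 to 0.0202%. Mir29a over Mir29c ran from 2.02 to 2.53, Mir29a over Mir29b-1 from 80.0 to 147.5 and Mir29c over Mir29b-2 from 39.6 to 46.6. Folds between the libraries need both replicates. No paired analysis was possible because there is 1 group. With at most 9 counts in a library, the Mir29b genes have wide counting intervals. What keeps their counts low was not tested.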
